A study of Mus musculus with 8 samples.

Results

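The tetraspanins described here are 10 mouse genes, *Cd9*, *Cd63*, *Cd81*, *Cd37*, *Cd53*, *Cd82*, *Cd151*, *Tspan3*, *Tspan4* and *Tspan14*, taken by symbol from the 55573 genes of the count table. All 10 were among the 20153 genes with enough counts to be tested. RNA came from brain microglia of 8 mice at postnatal day 60, with 4 *Smad2/3 fl/fl;Cx3cr1Cre* mutants and 4 controls, and each mouse gave 1 library. The labels call the controls wild-type littermates, whereas the Methods state that controls generally carried a single floxed allele with Cre and that the strains were bred onto C57BL6/J. *Smad2* and *Smad3* encode the transcription factors of canonical TGFβ signaling, and Cre made from the *Cx3cr1* locus recombines floxed alleles in microglia and in related macrophages. Cells were enriched on Percoll and sorted, according to the Methods, by a TdTomato reporter with CD45 and CD11b, so a sorted cell could be a microglial cell or another brain macrophage.

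Tetraspanins are small proteins that cross the membrane with 4 segments and expose a short and a long extracellular loop, the long one held by disulfide bonds at a conserved CCG motif. They bind each other and a fixed set of partners (integrins, immunoglobulin superfamily proteins, growth factor precursors and proteases), and thereby sort these partners into membrane domains, endosomes and extracellular vesicles. Brain macrophages carry several of them at the surface, among them CD9, CD81 and the leukocyte proteins CD37 and CD53, whereas CD63 is held mainly in late endosomes and lysosomes.

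Libraries held between 35639502 and 41946479 counts, and the members drew from 249 counts (*Cd151*) to 92621 counts (*Cd81*) in a library. *Smad3* was lower in mutants (log2 fold change -1.33, SE 0.36, adjusted p = 0.0429), and *Smad2* was not called (-0.34, SE 0.22, adjusted p = 0.34). All 8 microglial markers were detected in every library, and 6 of them were lower in mutants, with *P2ry12* at 4189 to 5979 CPM (counts per 1000000 after scaling) in controls and 139 to 203 CPM in mutants. Border-associated macrophage markers (*Mrc1*, *Cd163*, *Pf4* and *Lyve1*) summed to 20.5 to 31.9 CPM in controls and to 1093 to 1719 CPM in mutants, with 3 of the 4 called higher and none at 0 in any library. Lymphocyte markers (5 genes) summed to 20.2 to 46.2 CPM and 51.2 to 102 CPM, with 2 called higher, and endothelial and mural markers (6 genes) to 12.3 to 34.1 CPM and 5.08 to 7.27 CPM, with 1 called lower. The 15 neuronal, astrocyte and oligodendrocyte markers had no call and were highest in control 1 and mutant 1 by their sums, and the 5 monocyte and neutrophil markers had no call. *Xist* lay at 99.5 to 183 CPM in controls and 0.0276 to 0.562 CPM in mutants, with *Ddx3y* at 0.0269 to 0.224 and 9.74 to 59.8 CPM, so genotype and sex-linked expression cannot be told apart. No member lies on chromosome X or Y, and with the genes of both removed before the fit the same calls were made among the members. That fit still compares the same mice, so it cannot separate sex from genotype in these genes. The paper reports border-associated macrophage markers in microglia of *Itgb8* mutants, which lack another gene of this pathway. It reports generally smaller increases of such genes in *Smad2/3* mutants than in its other mutants. Whether these markers came here from microglia or from other macrophages was not tested. The part of the other cell types and of sex in the values that follow was not tested either.

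Of the 10 tetraspanins, 6 were lower in mutants (*Cd81*, *Cd9*, *Cd37*, *Cd53*, *Tspan14* and *Cd82*), 1 was higher (*Cd63*), and 3 (*Tspan4*, *Tspan3* and *Cd151*) did not pass the test (edgeR quasi-likelihood test, Benjamini-Hochberg adjusted p under 0.05 over all genes tested). Across all genes tested, 12.3% were called, 7.97% lower and 4.36% higher. Among genes whose mean reached 3 log2 CPM, as each member's did, 18.9% were called. The members were chosen with earlier results of these data known, so these shares are a description and no test. The same 7 members did not overlap between the groups in CPM, as did 22.1% of all genes tested. The members' median log2 fold change of mutants over controls was -0.98, beside 0.01 over all genes. Their summed level was 6175 ± 1040 CPM (SD, n = 4) in controls and 3152 ± 224 CPM (SD, n = 4) in mutants, and the lowest control (5280 CPM) lay above the highest mutant (3403 CPM). In such bulk samples, fewer cells of a type and less RNA per cell cannot be told apart.

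**Figure D1:**
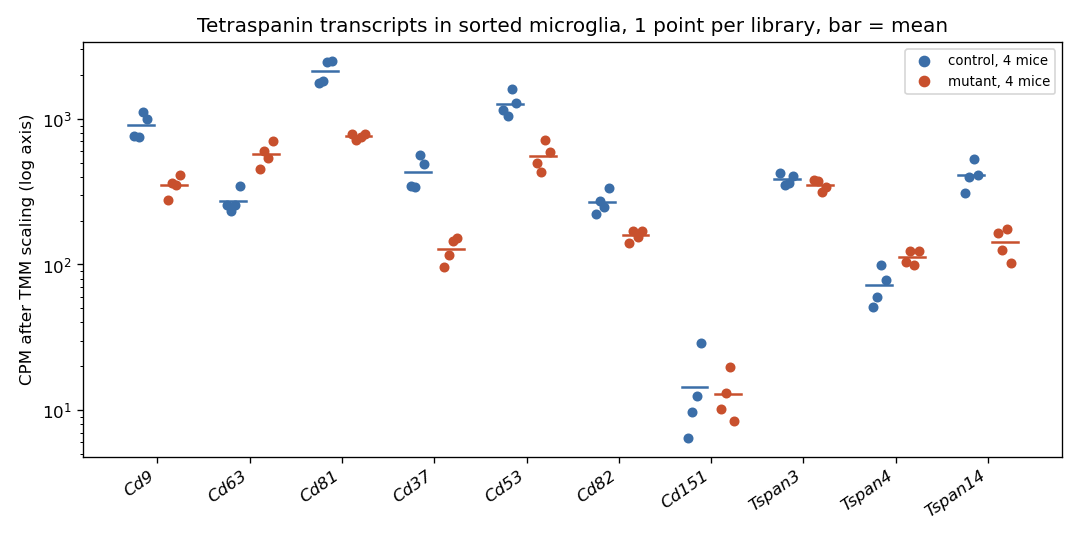
Level of each of the 10 tetraspanins (x axis) in each library in CPM (y axis, log scale), with 4 control and 4 mutant mice as points and the group mean as a bar. Mutant points lie below all control points for *Cd9*, *Cd81*, *Cd37*, *Cd53*, *Cd82* and *Tspan14* and above them for *Cd63*, and the groups overlap for *Cd151*, *Tspan3* and *Tspan4*.

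The plot of levels by library shows the members singly. *Cd81* encodes a surface tetraspanin best known as part of the B cell co-receptor and as a partner of immunoglobulin superfamily proteins. It lies on chromosome 7 from 143052739 to 143067934 (GRCm38, plus strand), and the bases upstream of its annotated exons (RefSeq table of GRCm38.p6, chr7:143052500-143052738, plus strand) are shown as the promoter of the member with the highest CPM, followed by those of its close relative *Cd9* (chr6:125494792-125495010, minus strand) and of *Cd63*, the member that rose (chr10:128909095-128909344, plus strand, inside the longer gene model of GENCODE). Capitals mark the SMAD letters CAGAC or their reverse complement GTCTG.
Cd81: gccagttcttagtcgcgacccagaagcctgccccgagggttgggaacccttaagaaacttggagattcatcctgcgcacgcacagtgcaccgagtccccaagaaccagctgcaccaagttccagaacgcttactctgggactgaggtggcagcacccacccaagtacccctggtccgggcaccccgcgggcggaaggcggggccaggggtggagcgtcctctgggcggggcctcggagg
Cd9: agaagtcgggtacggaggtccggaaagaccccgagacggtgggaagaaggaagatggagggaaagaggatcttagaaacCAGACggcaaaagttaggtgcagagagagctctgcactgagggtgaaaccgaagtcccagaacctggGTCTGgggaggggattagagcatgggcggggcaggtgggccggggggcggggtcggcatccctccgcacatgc
Cd63: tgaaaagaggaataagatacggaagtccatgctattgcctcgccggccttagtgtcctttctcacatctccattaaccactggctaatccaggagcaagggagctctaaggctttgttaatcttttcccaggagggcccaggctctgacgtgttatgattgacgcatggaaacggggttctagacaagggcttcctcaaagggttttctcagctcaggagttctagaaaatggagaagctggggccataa
The SMAD letters stood 2 times upstream of *Cd9* and nowhere in the windows of *Cd81* and *Cd63*. Over the 300 bases around each start site, with both strands searched, 7 of the members' 16 promoters held them (in 6 of 10 members), as did 49.6% of all 32851 promoters. Such a short run of letters is common, and a match is a description of the sequence and no site of binding.

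*Cd81* stood at 1754, 1822, 2474 and 2491 CPM in controls 1 to 4 and at 786, 711, 755 and 792 CPM in mutants 1 to 4. The mutants lay close together and all of them were below the lowest control. *Cd81* fell by 1.49 on the log2 scale (SE 0.17, 95% interval -1.87 to -1.10, adjusted p = 7.8e-04), a 2.81-fold lower level.

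*Cd9* encodes a surface tetraspanin that binds the immunoglobulin superfamily proteins IGSF8 and PTGFRN, as CD81 does, and is widely used as a marker of extracellular vesicles. The gene spans positions 125460266 to 125494791 of chromosome 6, on the minus strand. Its levels were 758, 752, 1121 and 992 CPM in controls 1 to 4 and 277, 363, 352 and 413 CPM in mutants 1 to 4. Controls 3 and 4 were the highest, as for *Cd81*, and the groups did not overlap. *Cd9* fell by 1.37 on the log2 scale (SE 0.20, adjusted p = 0.00231). The ratio of these 2 related genes overlapped between the groups, with 0.424 ± 0.0239 *Cd9* CPM per *Cd81* CPM in controls and 0.463 ± 0.0773 in mutants (SD, n = 4 each). In the gene models, 10.7% of the exon bases of *Cd9* are shared with *Gm26728*, and reads of such bases cannot be assigned to one of the genes without strand. Of its 50-base words, 14.4% also occur in transcripts of other genes, with both strands searched.

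*Cd82*, a surface tetraspanin known as a suppressor of metastasis, and *Cd151*, the tetraspanin that binds laminin-binding integrins, belong to the same broad group of surface members. *Cd82* lies on chromosome 2 (93419111 to 93463140, minus strand) and stood at 223, 274, 247 and 335 CPM in controls 1 to 4 and at 140, 171, 155 and 170 CPM in mutants 1 to 4. Every mutant was below every control, with control 4 the farthest away. It fell by 0.76 on the log2 scale (SE 0.16, adjusted p = 0.0166), the smallest change among the members that passed, and it no longer passed without control 2 (adjusted p = 0.0502) or without control 4 (0.0525). *Cd151* was the least abundant member, at 6.44, 9.71, 12.5 and 28.7 CPM in controls 1 to 4 and 10.2, 13, 19.8 and 8.39 CPM in mutants 1 to 4. Control 4 was above all other libraries, and the groups overlapped throughout. The log2 fold change of *Cd151* was -0.16 (SE 0.47, 95% interval -1.22 to 0.90, adjusted p = 0.869), an interval wide enough to hold a change of either sign, and it was 0.47 without control 4 (adjusted p = 0.46).

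*Cd37* and *Cd53* are the leukocyte tetraspanins, expressed almost only in blood and immune cells, where they organize antigen receptors, pattern receptors and adhesion molecules. *Cd37* (chromosome 7, 45233632 to 45239115, minus strand) was measured at 344, 339, 563 and 488 CPM in controls 1 to 4 and at 95.9, 117, 145 and 152 CPM in mutants 1 to 4. *Cd53* (chromosome 3, 106759921 to 106790149, minus strand) was measured at 1151, 1049, 1598 and 1293 CPM in the controls and at 501, 430, 712 and 591 CPM in the mutants. Control 3 was highest for both genes, and in neither gene did a mutant reach the lowest control. *Cd37* fell by 1.76 on the log2 scale (SE 0.23, adjusted p = 0.00146), the largest change of the 10 members by the fitted value, and *Cd53* fell by 1.19 (SE 0.21, adjusted p = 0.00635). *Cd37* was lower relative to *Cd53* as well, with a ratio of their CPM of 0.338 ± 0.0341 in controls and 0.231 ± 0.0398 in mutants (SD, n = 4 each), ranges that did not overlap.

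PU.1 is the myeloid factor that binds purine-rich DNA around GGAA, and the letters GAGGAAGT were searched on both strands as 1 form of its motif. They stood in 4 of the members' 16 promoters, 1 each for *Cd37*, *Cd53*, *Cd82* and *Tspan14*, beside 3.2% of all promoters. *Cd82* held them in 1 of its 4 promoters and *Tspan14* in 1 of 2. Any link between these letters and the members' levels was not tested. The windows of the leukocyte pair are shown because each holds the letters within 30 bases of the start site, as 1 promoter of *Tspan14* also does, with capitals marking their reverse complement, ACTTCCTC. They come from the RefSeq table of GRCm38.p6, at chr7:45238846-45238875 for *Cd37* and chr3:106790125-106790154 for *Cd53*, both on the minus strand.
Cd37: acccccccggaACTTCCTCtttctctgccg
Cd53: cactcagtctcACTTCCTCactcttctcgc
The letters start 25 bases before the RefSeq start of *Cd37*, a position inside its longer gene model of GENCODE. In *Cd53* they start just inside the first exon. Whether PU.1 bound there was not measured.

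*Cd63* encodes the tetraspanin of late endosomes, lysosomes and exosomes, and it was the one member that rose. The gene lies on chromosome 10 from 128900989 to 128912822 on the plus strand. Its levels were 258, 233, 255 and 344 CPM in controls 1 to 4 and 452, 598, 543 and 709 CPM in mutants 1 to 4. Each mutant was above each control, and replicate 4 was the highest in both groups. *Cd63* was 2.11-fold higher in mutants (log2 fold change 1.08, SE 0.19, 95% interval 0.65 to 1.51, adjusted p = 0.00696), and this call held with any single mouse left out (adjusted p from 0.00754 to 0.0283). Of the 50-base words of its transcripts, 11.1% also occur in transcripts of other genes.

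With *Cd63* higher and most other members lower, the composition of tetraspanin transcripts differed between the groups. *Cd63* made up 4.45 ± 0.681% of the members' summed CPM in controls and 18.2 ± 2.52% in mutants, whereas *Cd81* made up 34.5 ± 1.29% and 24.2 ± 1.85% (SD, n = 4 each). For each *Cd9* CPM there were 0.306 ± 0.0549 *Cd63* CPM in controls and 1.63 ± 0.07 in mutants (SD, n = 4 each), so that *Cd63* passed *Cd9* in CPM in all mutants and in none of the controls. For each *Cd81* CPM there were 0.129 ± 0.019 and 0.758 ± 0.142 *Cd63* CPM (SD, n = 4 each). Neither of these ratios overlapped between the groups. They follow from the levels given above and are descriptions with no test of their own.

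*Tspan14* encodes a member of the TspanC8 subgroup, the tetraspanins that bind the protease ADAM10 and carry it out of the endoplasmic reticulum. It lies on chromosome 14 (40906445 to 40966807, minus strand) and stood at 312, 396, 530 and 411 CPM in controls 1 to 4 and at 165, 125, 175 and 102 CPM in mutants 1 to 4. Control 3 was the highest and mutant 4 the lowest, with a wide gap between the groups. *Tspan14* fell by 1.54 on the log2 scale (SE 0.23, adjusted p = 0.00283).

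*Tspan3* and *Tspan4* are widely expressed, and TSPAN4 is known for its place in migrasomes, the vesicles that migrating cells leave on their retraction fibres. *Tspan3* (chromosome 9, 56131725 to 56165477, minus strand) was measured at 423, 354, 364 and 405 CPM in controls 1 to 4 and 382, 374, 314 and 342 CPM in mutants 1 to 4. The groups overlapped, and the log2 fold change was -0.13 (SE 0.14, 95% interval -0.44 to 0.18, adjusted p = 0.578). That interval leaves out changes of the size seen in the 7 members that passed.

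*Tspan4* (chromosome 7, 141475240 to 141493427, plus strand) stood at 51.1, 59.8, 98.8 and 77.7 CPM in controls 1 to 4 and at 104, 123, 98.4 and 124 CPM in mutants 1 to 4. The groups met only at control 3 and mutant 3, and the other 3 controls were below all mutants. Its log2 fold change was 0.65 (SE 0.22, 95% interval 0.16 to 1.13, adjusted p = 0.0857), and the call depended on the setting, with an adjusted p of 0.0344 without control 3, 0.0475 with DESeq2 and 0.0378 with library totals alone as the scale. *Tspan4* shares 13.4% of its exon bases with *Chid1* and starts 3766 bases after the end of *Cd151*.

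**Figure D2:**
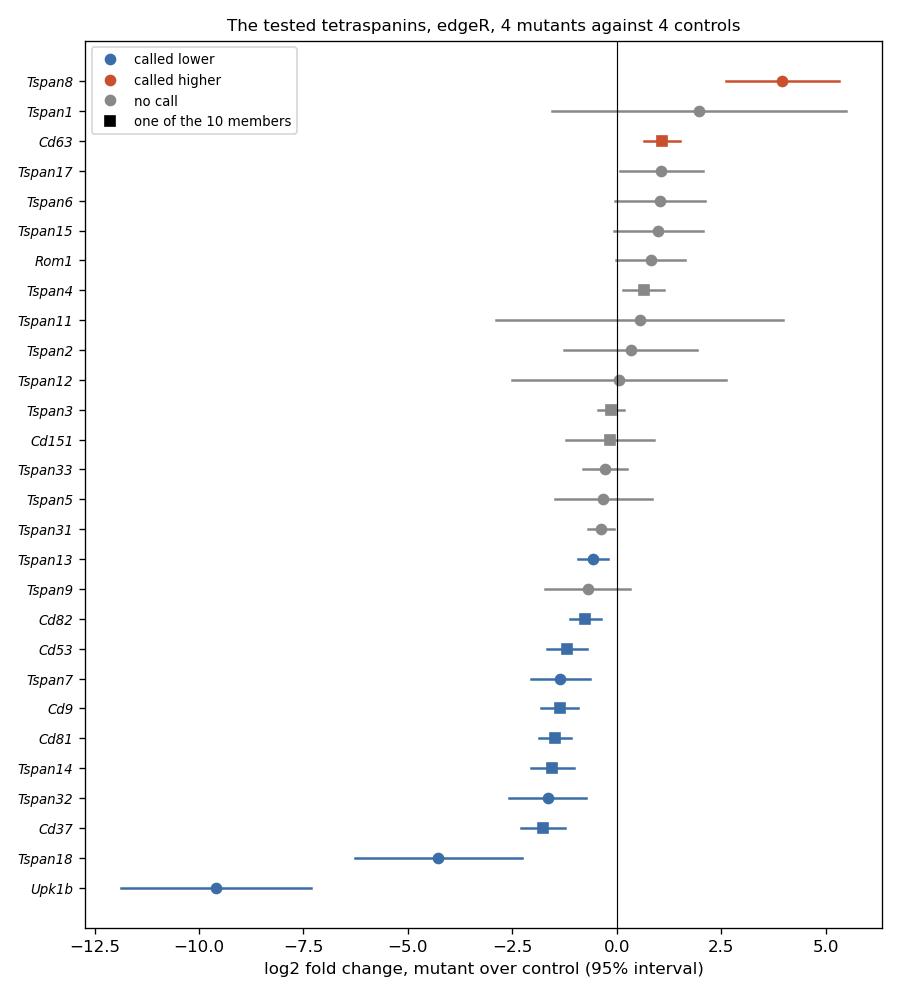
Log2 fold change of mutants over controls (x axis) for each of the 28 tested tetraspanins (y axis), with points for the fitted value, bars for the 95% interval, squares for the 10 members and colour for the call at an adjusted p under 0.05. Calls run from *Upk1b* at -9.59 to *Tspan8* at 3.96, and the called members lie between *Cd37* at -1.76 and *Cd63* at 1.08.

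Levels of different genes were compared per kilobase of annotated exon, since longer genes gather more counts. In controls the order of mean levels in CPM per kilobase was *Cd81* (742), *Cd53* (731), *Cd9* (443), *Tspan14* (156), *Cd37* (123), *Tspan3* (90.5), *Cd82* (89.7), *Cd63* (74), *Tspan4* (33) and *Cd151* (5.23). In mutants it was *Cd53* (321), *Cd81* (264), *Cd9* (172), *Cd63* (156), *Tspan3* (82.6), *Tspan14* (53.4), *Cd82* (52.9), *Tspan4* (51.6), *Cd37* (36.2) and *Cd151* (4.69). *Cd63* thus stood at rank 8 in every control and at rank 4 in every mutant, and *Cd37* moved from rank 5 to rank 9 of the means.

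Several neighbours in these orders could not be separated by their spread. *Cd81* exceeded *Cd53* in 2 of 4 controls only, *Tspan3* exceeded *Cd82* in 2 of 4 controls, and *Tspan14*, *Cd82* and *Tspan4* overlapped in mutants. *Cd9* and *Cd63* also had overlapping ranges in mutants, although *Cd9* was the higher of the pair in 4 of 4. The ranks depended on the length used: with the longest annotated transcript, *Cd81* was first in both groups (1329 and 473 CPM per kilobase), *Cd9* was second in controls, and *Tspan14* stood at rank 6 in controls and 8 in mutants. The ranks of the means of *Cd63* and *Cd37* were the same with either length. In single libraries with the longest transcript, *Cd63* stood at rank 4 to 5 in mutants and *Cd37* at rank 4 to 7 in controls.

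**Figure D3:**
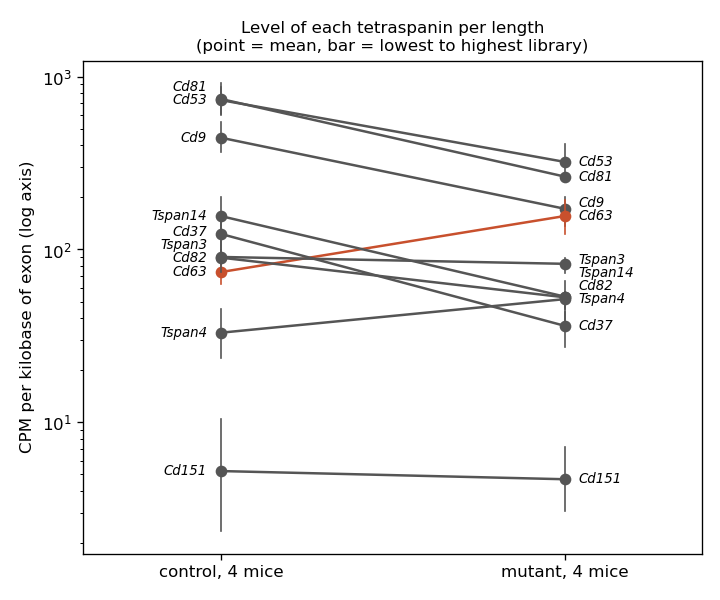
Mean level of each member in CPM per kilobase of annotated exon (log axis) in 4 control and 4 mutant mice, with a line joining the means of a gene and bars from the lowest to the highest library. The line of *Cd63* rises from 74 to 156 and crosses those of *Tspan14*, *Cd37*, *Tspan3* and *Cd82*, while *Cd81* falls from 742 to 264.

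Other genes of the tetraspanin family changed in both directions. Of 21 other tetraspanins, 18 were tested, of which 5 were lower in mutants, 1 was higher and 12 had no call. Their median log2 fold change was -0.12. Over all genes tested, 7.97% were called lower and 4.36% higher, given as a description and no test of the list. *Tspan10*, *Upk1a* and *Prph2* had too few counts. The largest changes were in genes that one group hardly expressed.

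*Upk1b* encodes a uroplakin, a tetraspanin named for the plaques of the bladder lining. It stood at 178, 44.5, 213 and 80.1 CPM in controls 1 to 4 and at 0.026, 0.518, 0.0557 and 0 CPM in mutants 1 to 4, which is 27 counts over all mutants beside 19195 over the controls. Every control was thus far above every mutant, although the controls differed widely among themselves. *Upk1b* fell by 9.59 on the log2 scale (SE 1.01, adjusted p = 4.8e-04), and its log2 fold change was -12.05 without mutant 2, the library with most of the mutants' counts (adjusted p = 5.1e-04). In mutant 4 the count of 0 allows up to 3 counts.

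*Tspan18*, a tetraspanin known from endothelial cells and calcium signaling, was at 99.8, 66.7, 145 and 90.6 CPM in controls 1 to 4 and at 7.25, 1.32, 11.8 and 0.442 CPM in mutants 1 to 4. The groups were far apart and the mutants varied more, in proportion, than the controls. *Tspan18* fell by 4.27 on the log2 scale (SE 0.88, adjusted p = 0.0141), and its log2 fold change was -5.07 without mutant 3, the highest mutant (adjusted p = 0.0121). On chromosome 2 it ends 84605 bases from *Cd82*.

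*Tspan8*, a tetraspanin of epithelia and carcinomas, was the one that rose outside the members. It was at 0.957, 0.703, 0.951 and 0.323 CPM in controls 1 to 4 and at 7.19, 7.95, 6.1 and 24.8 CPM in mutants 1 to 4. Mutant 4 was far above the other mutants, and all mutants were above all controls. Its log2 fold change was 3.96 (SE 0.60, adjusted p = 0.00307), and it stayed called with any single mouse left out, at 3.27 without mutant 4.

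**Figure D4:**
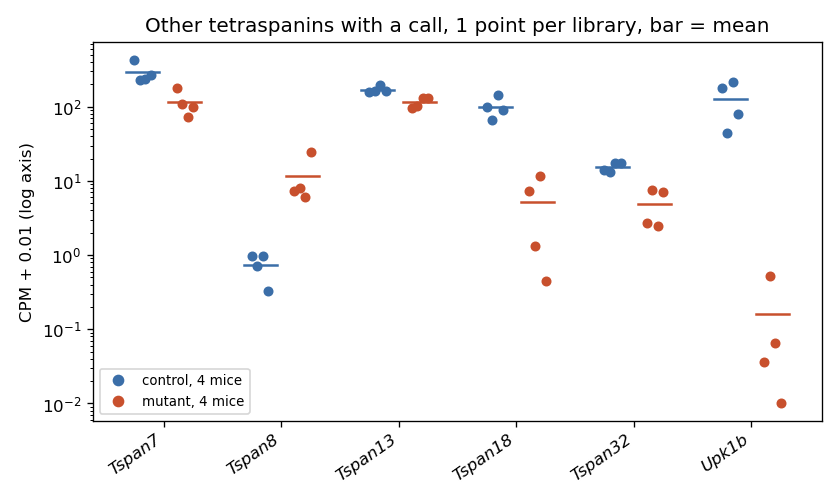
Level of the 6 called tetraspanins outside the members in each library, in CPM with 0.01 added (log axis), with 4 control and 4 mutant mice as points and the mean as a bar. *Upk1b* stands at 44.5 to 213 CPM in controls and at or below 0.518 CPM in mutants, *Tspan18* is likewise lower, and *Tspan8* is the one gene with the mutants on top.

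Smaller changes were seen in *Tspan7*, *Tspan32* and *Tspan13*. *Tspan7*, an X-linked tetraspanin best known from neurons, stood at 229 to 432 CPM in controls and 73.4 to 179 CPM in mutants and fell by 1.35 (SE 0.31, adjusted p = 0.0226) on the log2 scale. That call was lost without mutant 2 (adjusted p = 0.066) or mutant 4 (0.0633). Within the groups *Tspan7* was highest in control 1 (432 CPM) and mutant 1 (179 CPM), the libraries with the highest neural marker sums. It did not follow these sums in controls 2 to 4, at 229, 240 and 269 CPM beside neuronal sums of 93.8, 45.6 and 29.9 CPM. In mutants 2 to 4 it stood at 110, 73.4 and 98.4 CPM beside 111, 79.1 and 86.8 CPM. The part of neural RNA in these levels was not tested. *Tspan32*, a tetraspanin of blood cells whose gene ends 33094 bases before the start of *Cd81*, stood at 13.1 to 17.6 CPM in controls and 2.45 to 7.58 CPM in mutants and fell by 1.65 (SE 0.41, adjusted p = 0.0311). It lost its call in 6 of the 8 fits that left out a mouse, the exceptions being mutants 2 and 4. *Tspan13* stood at 159 to 194 CPM and 97 to 131 CPM and fell by 0.57 (SE 0.16, adjusted p = 0.0433), a call that was lost when any of the 8 mice was left out (adjusted p from 0.0525 to 0.114).

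The TspanC8 subgroup shows *Tspan14* beside its relatives. *Tspan5* (-0.32, SE 0.51), *Tspan33* (-0.29, SE 0.24), *Tspan15* (0.99, SE 0.47) and *Tspan17* (1.06, SE 0.44) had no call in log2 fold change (adjusted p = 0.744, 0.474, 0.203 and 0.149). *Tspan33* was the most abundant of these 4 in CPM, with 96.5 to 128 CPM in controls and 52.6 to 115 CPM in mutants. *Tspan14* was the one TspanC8 gene that passed. *Tspan2*, a relative of *Cd9* known from oligodendrocytes, was at 1.08 to 15.4 CPM in controls and 4.11 to 11.3 CPM in mutants and had no call (0.34, SE 0.71, adjusted p = 0.807), with its highest level in control 1 and its next in mutant 1, the libraries with the highest neural marker sums.

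The partners that tetraspanins bind or carry were taken as 3 lists, with 29 of 30 genes tested, 5 higher, 3 lower and 21 with no call (median log2 fold change -0.18). Among 13 tested membrane partners, *Vcam1*, *Itga4*, *Clec7a* and *Hbegf* were higher and *Icam1* was lower. Among the 4 genes of the ADAM10 pathway, *Cxcl16* was higher. Among 12 genes of endosomes and exosomes, the home of CD63, none was higher and *Rab27a* and *Flot1* were lower. The calls made up 2 of 12 genes in that list and 8 of 29 genes over the 3 lists. Beside them stand the 12.3% of all genes tested and the 18.9% of well expressed genes given above. The lists were chosen with earlier results of these data known, so these shares are a description and no test.

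*Igsf8* and *Ptgfrn*, which encode the direct partners of CD9 and CD81, had no call. *Igsf8* was at 117 to 348 CPM in controls and 169 to 289 CPM in mutants (log2 fold change 0.37, SE 0.36, adjusted p = 0.558). *Ptgfrn* was at 2.97 to 9.28 CPM and 0.919 to 2.74 CPM (-1.28, SE 0.52, adjusted p = 0.143). The groups overlapped for *Igsf8* and did not for *Ptgfrn*. *Hbegf*, the membrane-bound growth factor that CD9 binds, stood at 12, 10, 19.7 and 9.68 CPM in controls 1 to 4 and at 29.8, 27.3, 55.9 and 26.8 CPM in mutants 1 to 4. All mutants were above all controls. Its log2 fold change was 1.44 (SE 0.33, adjusted p = 0.0218), a call lost without control 1 (adjusted p = 0.0524) or control 2 (0.0699).

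Integrins and their ligands moved in both directions. *Vcam1* and *Icam1* encode adhesion molecules that gather in tetraspanin domains with CD9 and CD151, and *Itga4* encodes the α4 chain of the integrin that binds VCAM1 and associates with CD81. *Vcam1* stood at 76.3, 58.8, 22.1 and 48.1 CPM in controls 1 to 4 and at 1390, 847, 1848 and 878 CPM in mutants 1 to 4 (log2 fold change 4.59, SE 0.45, adjusted p = 3.2e-04). *Itga4* stood at 2.24 to 13 CPM in controls and 29.3 to 63.3 CPM in mutants (2.48, SE 0.52, adjusted p = 0.0151). *Icam1* stood at 158 to 281 CPM and 42.3 to 71.3 CPM and fell by 1.91 on the log2 scale (SE 0.24, adjusted p = 0.00117). None of the 3 genes overlapped between the groups. The genes for the CD151-bound integrin chains had no call, with log2 fold changes of 0.91 for *Itga3* (SE 0.26, adjusted p = 0.0507), -1.13 for *Itga6* (SE 0.35, adjusted p = 0.0683) and -0.24 for *Itgb1* (SE 0.20, adjusted p = 0.48).

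*Clec7a* encodes Dectin-1, the β-glucan receptor that CD37 and CD63 associate with. It stood at 17.8, 24.4, 10.7 and 10.5 CPM in controls 1 to 4 and at 91.3, 60.5, 99.6 and 99.5 CPM in mutants 1 to 4. It rose (log2 fold change 2.47, SE 0.32, adjusted p = 0.00133), in the direction of *Cd63* and opposite to *Cd37*.

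*Adam10*, the protease that TSPAN14 carries, was at 84.2 to 114 CPM in controls and 47.4 to 96.9 CPM in mutants and had no call (log2 fold change -0.48, SE 0.24, 95% interval -1.02 to 0.06, adjusted p = 0.225). Its substrates *Notch1* (0.03, SE 0.30, adjusted p = 0.967) and *Notch2* (-0.20, SE 0.16, adjusted p = 0.461) had none either. *Cxcl16*, a membrane-bound chemokine that ADAM10 sheds, stood at 79.3 to 115 CPM in controls and 612 to 815 CPM in mutants (2.83, SE 0.18, adjusted p = 4.8e-05), with 18.3% of its exon bases shared with *Zmynd15*.

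The endosomal list gives the setting of *Cd63*. *Lamp1* and *Lamp2*, the most abundant lysosomal membrane proteins' genes, were at 967 to 1235 CPM and 451 to 532 CPM in controls and at 735 to 1032 CPM and 346 to 472 CPM in mutants, with no call (log2 fold change -0.23, SE 0.16, and -0.18, SE 0.15, adjusted p = 0.396 and 0.474). *Sdcbp*, which encodes syntenin, the adaptor that binds CD63, had overlapping groups at 400 to 559 CPM and 376 to 549 CPM (-0.01, SE 0.17, 95% interval -0.41 to 0.38, adjusted p = 0.971). *Cd63* thus passed the test and these 3 genes did not.

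*Rab27a*, a GTPase gene for docking of secretory vesicles, stood at 17.7 to 28.2 CPM in controls and 2.98 to 8.16 CPM in mutants and fell by 1.96 on the log2 scale (SE 0.33, adjusted p = 0.00549). *Flot1*, a lipid raft scaffold, fell by 0.86 (SE 0.22, adjusted p = 0.0355), a call that held in 1 of the 8 fits with a mouse left out, the one without mutant 1, and that was lost with library totals alone as the scale (adjusted p = 0.0772).

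**Figure D5:**
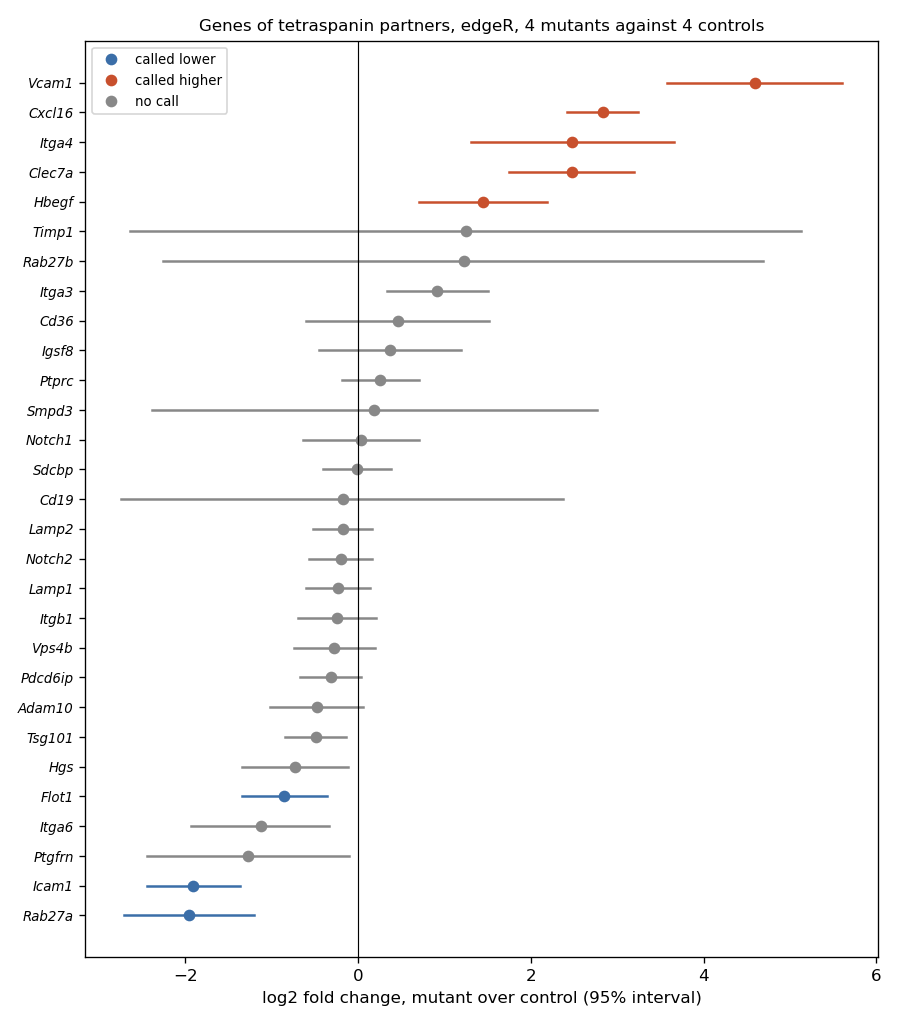
Log2 fold change of mutants over controls (x axis) for the 29 tested partner genes of the 3 lists (y axis, ordered by the fitted value), with points for the fitted value, bars for the 95% interval and colour for the call. *Vcam1* at 4.59 and *Cxcl16* at 2.83 lie farthest to the right, *Rab27a* at -1.96 and *Icam1* at -1.91 farthest to the left among calls, and 10 of the 12 endosomal and exosomal genes have no call.

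Within the groups, the mice differed. Controls 3 and 4 held the highest level of 5 and 4 of the 10 members, and controls 1 and 2 the lowest of 5 each. Control 3 had the lowest scaling factor of all libraries (0.874). In mutants, mutant 4 held the highest level of 5 members and mutant 1 the lowest of 4. With any single mouse left out, *Cd9*, *Cd81*, *Cd37*, *Cd53*, *Cd63* and *Tspan14* kept their calls, and their log2 fold changes ranged from -1.87 to -1.61 for *Cd37*, -1.57 to -1.36 for *Cd81* and 0.96 to 1.26 for *Cd63*.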

How the data were processed

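Reads had been aligned by the authors to the mm10 genome (Rsubread) and assigned to genes (featureCounts), as their Methods state. The deposited values are raw counts per gene and library, not normalized, and the aligner's version and the annotation are not given in the sources used here. The labels name single-end Nextera XT libraries, the Methods paired-end NEBNext Ultra II libraries with polyA selection, and both are unstranded. The *Smad2/3* data are credited in the Methods to a different deposit. The authors' own DESeq2 (1.28, per the submitters' processing notes) comparison table holds fold changes and p-values and was not used.

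Genes that reached 10 counts in 4 or more of the 8 libraries were tested with edgeR 4.0.16 in R 4.3.3 (TMM scaling, glmQLFit and glmQLFTest, mutants against controls with no block), with Benjamini-Hochberg adjustment over 20153 genes and a call at an adjusted p under 0.05. The standard error is the size of the log2 fold change over the square root of F, and intervals are 95% t intervals on that scale. CPM uses the TMM-scaled library sizes. The biological coefficient of variation was 0.542. No pair of libraries within a group agreed within sampling noise (lowest chi-square per gene 107). The p-values weigh the difference between the groups against the spread between mice within a group. The labels do not say how the mice of a group are related, so whether they are independent replicates is not known. Limits from counts of 0 hold for counting error alone, since PCR copies were not separated by molecular identifiers.

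Coordinates, exon lengths and exons shared between genes come from GENCODE M21 (GRCm38), and promoters of 300 bases from a RefSeq table of GRCm38.p6, in which all 10 members were found. Printed windows leave out annotated exons, except for the 30-base windows. Proteins were not analysed here. The tests were first run on simulated data. The members and gene lists were chosen with earlier results of these data known. Named were all members, *Tspan2*, the TspanC8 genes, other tetraspanins and partners with a call, partners described with the member they bind, and genes that check the libraries. *P2ry12*, *Lamp1* and *Lamp2* were named after their values were seen. The alternatives were DESeq2 1.42.0, RLE size factors, library totals alone, no filter on low counts, at least 10 counts in all 8 libraries, a replicate block, removal of genes on X and Y, each mouse left out, and the longest transcript as length. Tables and plots were made in Python 3.11.15 (matplotlib 3.10.9, scipy 1.17.1, numpy 2.4.6, pandas 2.3.3).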

Additional observations from a re-analysis of the deposited data

Results flagged for a closer look

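In 4 of the 48 groups of 4 libraries examined among the named genes, 1 library stood far from the other 3, where chance gives about 1 group in 20. *Tspan8* was at 24.8 CPM in mutant 4 and at 6.1 to 7.95 CPM in the other mutants. *Hbegf* was at 55.9 CPM in mutant 3 and at 26.8 to 29.8 CPM in the others. *Upk1b* was at 0.518 CPM in mutant 2, the mutant with nearly all of the group's counts, and at 0 to 0.0557 CPM in the others. *Tspan13* was at 194 CPM in control 3 and at 159 to 165 CPM in the other controls. None of the 10 members had such a library in either group.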

How the results depend on the processing

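Across the 7 alternatives other than leaving out a mouse, 67 of 70 fold changes of members kept their direction and their side of the threshold. *Cd151*, which was not called in any fit, turned from -0.16 to 0.04 with the replicate block, and ranged from -0.44 to 0.47 with a mouse left out (0.47 without control 4 and 0.00 without mutant 4). The other 2 are *Tspan4* with DESeq2 (0.64, adjusted p = 0.0475) and with library totals alone (0.78, adjusted p = 0.0378), which bring the members called higher to 2. With a mouse left out, 1 to 2 members were called higher and 5 to 6 lower, and 3 to 4 other tetraspanins were called lower. DESeq2 called 4751 genes where edgeR called 2485, and 5 partner genes lower in place of 3. Library totals alone shifted the median of all genes by 0.12 on the log2 scale, and the split of calls was then 1018 higher and 1287 lower. *Tspan13* lost its call with RLE factors (adjusted p = 0.0515), library totals (0.0559) and no filter (0.0832), and *Flot1* with library totals (0.0772). Same-numbered mice did not deviate together in all pairs (correlations 0.166, 0.0183, 0.144 and 0.114, with 3 of 4 mutants closest to the control of their own number), and a fit with the replicate block called the same number of members, 7, and 2383 genes, with *Flot1* the one named gene to lose its call (adjusted p = 0.0637). *Upk1b* had no value with 10 counts required in all libraries, nor *Tspan7* with X and Y removed. The causes of these changes were not tested. With 4 mice a group, differences in *Cd151* and in other tetraspanins under about 10 CPM were measured with wide intervals.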
